A study of Mus musculus with 12 samples.

Results

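The interferon-stimulated genes examined here are 38 genes that cells switch on after sensing an interferon, chosen by name out of 20262 genes with a probe set of their own on either array of the study. Every probe set annotated to 1 of these genes alone was used. The array hybridised with macrophage and liver RNA measured 35 of the 38 genes with 35 probe sets, and the aorta array measured 35 genes with 54 probe sets. Isg15 and Ifi44 had no probe set of their own on either array, Gbp2 had none on the macrophage and liver array, and Xaf1 had none on the aorta array. The probe set of Isg15 was shared with Gm9706, and further shared probe sets of Gbp2, Oas1a and Trim30a were left out. Ifit3 and Oas1a have close relatives in the mouse genome, so hybridisation of related transcripts cannot be told apart from their own.

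The study compared Prkch-/-Apoe-/- mice, called knockout here, with Apoe-/- mice, called control. All mice of both genotypes lacked Apoe, the apolipoprotein through which remnant lipoproteins are cleared from blood, and all had been backcrossed to C57BL/6J for more than 12 generations. Prkch encodes protein kinase C eta. Peritoneal macrophages elicited with thioglycolate came from females on regular diet, with 3 knockout and 3 control arrays, at 18, 17 and 27 weeks of age for replicates 1, 2 and 3 of each genotype, and the labels name no stimulation of the cells. Livers came from males of 20 weeks that had eaten a high-fat diet for 12 weeks and were re-fed before sampling, with 2 knockout and 2 control arrays. Aortas came from fed males of the same age and diet, with 1 array per genotype, each of RNA pooled from 4 mice. Array medians ran from 6.57 to 6.77 log2 units in macrophages and from 5.88 to 5.93 in liver, and were 30.1 units of signal in the knockout aorta pool and 27.8 in the control pool.

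At its brighter probe set (in aorta, its only one), Prkch itself read lower in the knockouts of all 3 tissues; the part of the gene that was removed is not stated in the labels, and a probe set outside that part would not check the genotype. On knockout macrophage arrays this probe set read 9.36, 8.79 and 8.87 log2 units, against 9.94, 9.86 and 9.31 on control arrays. The genotypes overlapped there, since knockout replicate 1 lay above control replicate 3. In liver it read 5.93 and 5.65 on knockout arrays and 6.57 and 6.87 on control arrays, and the aorta signal was 9.94 in the knockout pool and 17.2 in the control pool. Both aorta signals lay below the filter of 32.6 used for dim probe sets of that array. Limma called neither the macrophage nor the liver difference (Benjamini-Hochberg adjusted p = 0.9995 and 0.643). A dimmer probe set differed by -0.32 in macrophages and by 0.01 in liver, where it read 3.94 and 4.21 in knockout livers and 4.08 and 4.04 in control livers. Summed levels of 5 macrophage markers lay between 41435 and 45009 on knockout macrophage arrays and between 40242 and 42656 on control arrays (linear units), and hepatocyte markers summed to between 80774 and 82170 in knockout livers and between 79208 and 82152 in control livers. In aorta, smooth muscle markers summed to 4391 in the knockout pool and 3548 in the control pool. Exact ties between deposited values split the macrophage arrays into 2 processing batches. Batch 1 held knockout replicate 1 and control replicates 1 and 2, and batch 2 held knockout replicates 2 and 3 and control replicate 3. Arrays of batch 2 shared 16075 to 18000 identical values per pair among 35557 probe sets, arrays of batch 1 shared 53 to 69, and pairs across batches shared 0 to 3. Counts over all members, the differences of Irf7, Psmb9, Xaf1, Bst2 and Oas1a, and some further values are therefore also given within batches.

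Interferons of type I, such as interferon beta, bind a receptor of the chains Ifnar1 and Ifnar2, which activates the kinases Jak1 and Tyk2. These phosphorylate Stat2, which acts with Irf9 in the complex ISGF3, and this complex binds interferon-stimulated response elements in promoters. Interferon gamma acts through gamma activated sites, and Irf7 amplifies the response by raising further interferon production. The genes switched on encode proteins that sense viral RNA and DNA, block translation and budding of viruses, and widen antigen presentation. Macrophages make and answer interferons and keep some of these genes active without infection.

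Promoters of the 5 members that the naming rule picks in macrophages are shown, since the response element is the sequence through which most of these genes answer interferon. The sequences are the 250 bases before the annotated start of each gene in RefSeq, build GRCm38.p6, written along the gene's own strand. Capitals mark matches to the core of the response element, GAAA followed by any pair of bases and GAAA again, searched on both strands.
Irf7: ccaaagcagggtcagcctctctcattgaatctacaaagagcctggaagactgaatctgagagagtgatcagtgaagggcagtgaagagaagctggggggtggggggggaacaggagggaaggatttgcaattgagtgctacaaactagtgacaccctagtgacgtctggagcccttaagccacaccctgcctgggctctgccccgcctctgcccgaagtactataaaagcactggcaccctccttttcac
Psmb9: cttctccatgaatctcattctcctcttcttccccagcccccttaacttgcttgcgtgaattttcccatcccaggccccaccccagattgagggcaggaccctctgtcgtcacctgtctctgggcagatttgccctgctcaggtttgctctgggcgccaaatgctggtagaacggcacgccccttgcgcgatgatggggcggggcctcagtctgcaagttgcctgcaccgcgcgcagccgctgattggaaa
Xaf1: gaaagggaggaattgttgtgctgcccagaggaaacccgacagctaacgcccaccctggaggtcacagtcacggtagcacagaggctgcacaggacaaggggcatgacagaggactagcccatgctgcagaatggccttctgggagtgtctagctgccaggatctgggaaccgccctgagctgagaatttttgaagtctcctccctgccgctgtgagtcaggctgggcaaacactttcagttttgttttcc
Bst2: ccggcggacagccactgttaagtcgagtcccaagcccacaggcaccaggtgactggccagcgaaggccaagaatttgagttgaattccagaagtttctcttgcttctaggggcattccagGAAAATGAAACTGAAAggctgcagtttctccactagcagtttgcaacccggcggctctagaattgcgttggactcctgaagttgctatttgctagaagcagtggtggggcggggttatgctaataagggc
Oas1a: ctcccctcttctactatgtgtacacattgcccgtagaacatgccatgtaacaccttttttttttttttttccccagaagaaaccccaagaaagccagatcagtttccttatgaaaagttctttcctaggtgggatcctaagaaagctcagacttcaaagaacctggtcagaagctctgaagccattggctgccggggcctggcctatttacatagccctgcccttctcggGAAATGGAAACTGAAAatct
The windows lie upstream of the transcribed gene, at chr7:141266425-141266674 (minus strand) for Irf7, chr17:34187331-34187580 (minus) for Psmb9, chr11:72301379-72301628 (plus) for Xaf1, chr8:71537473-71537722 (minus) for Bst2 and chr5:120907526-120907775 (minus) for Oas1a. The Bst2 window held 2 overlapping cores beginning 130 and 124 bases before the start, and the Oas1a window held 2 overlapping cores beginning 20 and 14 bases before it. A gamma activated site, TTCNNNGAA, overlapped the Bst2 cores, and a separate one lay 98 bases before the Oas1a start. The windows of Irf7, Psmb9 and Xaf1 held neither run of letters, which says nothing about the factors. The window of Psmb9 overlaps that of Tap1, at chr17:34187306-34187555 on the opposite strand, so these neighbours start from a shared stretch. Of the 38 members, 29 had a promoter in the table. The core was present in 12 of these 29 (41.4%), against 936 of 27025 genes (3.46%), and the gamma activated site in 6 of 29 (20.7%), against 2197 genes (8.13%).

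The macrophages were elicited with thioglycolate and received no further named stimulus. The comparison therefore covers the interferon program of elicited cells in knockouts and controls. Most members read lower in knockout macrophages, by small amounts, and none passed the test. Of 35 members measured, 29 were lower and 6 higher in knockouts, with a median difference of -0.15 log2 units. Over all 21789 probe sets with 1 gene symbol, 63.5% were lower and the median difference was -0.039. By limma with Benjamini-Hochberg adjustment, 0 of the 34 members past the filter on dim probe sets were called, as were 0 of all 16400 probe sets tested (0%). At an unadjusted p under 0.05, limma picked 1 member, Irf7, beside 127 probe sets over the whole array (0.774%). An even spread of p-values would put 820 of the 16400 probe sets there. The fit was thus conservative, and the absence of calls says little about small differences. Knockout and control arrays did not overlap for 2 members, Irf7 and Psmb9, both lower in knockouts, and for 0 members higher in knockouts. Over all probe sets with 1 symbol the corresponding shares were 1.48% lower and 0.583% higher.

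**Figure D1:**
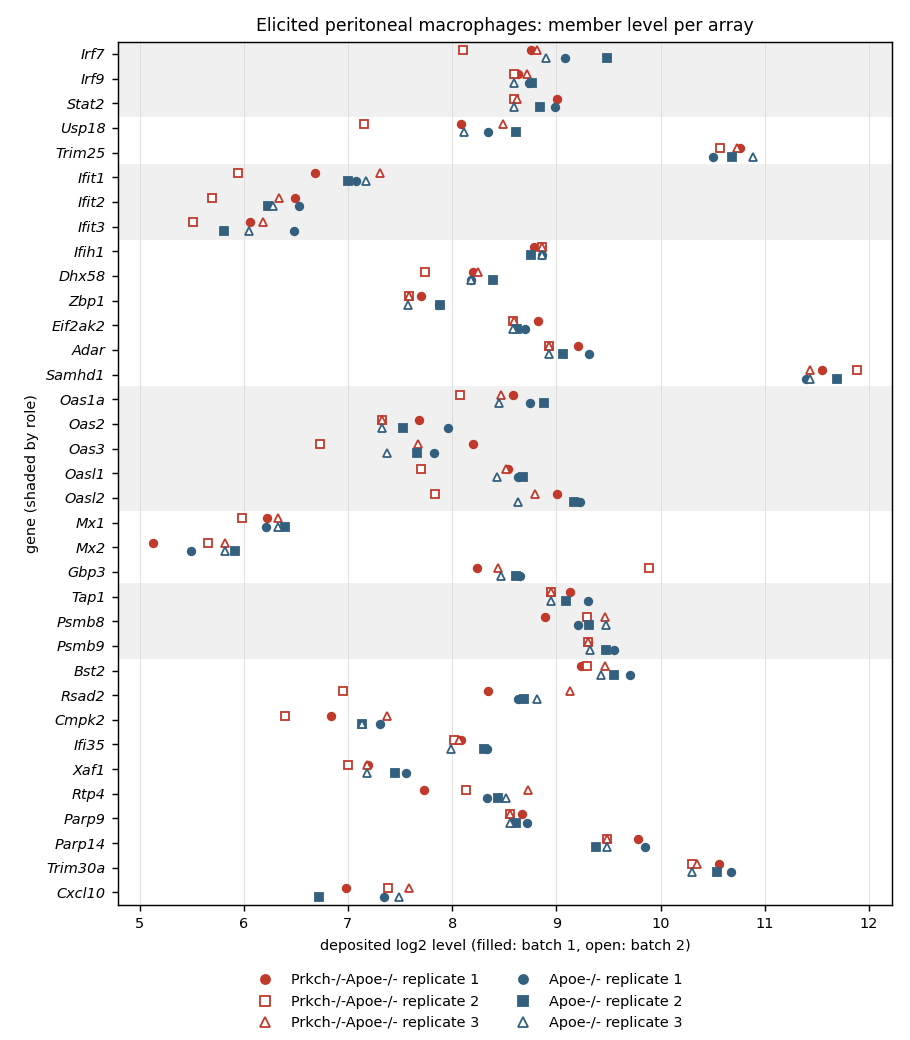
Deposited log2 level of each of the 35 measured members (rows, shaded by role) on each macrophage array. Red marks are knockout arrays and blue marks control arrays, the shape gives the replicate, and filled marks belong to batch 1 and open marks to batch 2. Knockout replicate 2 (open red squares) is the lowest of the 6 arrays for 15 members, among them Rsad2, Ifit1 and the Oas genes Oas1a, Oas3, Oasl1 and Oasl2, and the highest for Gbp3 and Samhd1.

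Among the regulators, Irf7 differed most. This transcription factor, which drives interferon alpha production, read 8.76, 8.10 and 8.82 log2 units on knockout arrays, against 9.09, 9.49 and 8.90 on control arrays. Every knockout array lay below every control array, although knockout replicate 3 and control replicate 3 differed by little. The difference was -0.60 ± 0.23 (SE, n = 3 and 3), or 66.0% of control, with a limma p of 0.039 and a Benjamini-Hochberg adjusted p of 1.00. It was -0.53 within batch 1 and -0.44 within batch 2. In a limma fit with a term for batch it was -0.49 ± 0.23 (Benjamini-Hochberg adjusted p = 0.920). Without knockout replicate 2 it was -0.37. The ISGF3 subunits Irf9 and Stat2 differed by -0.06 and -0.07, less than their standard errors of 0.09 and 0.15. Stat2 was higher in knockouts within both batches, by 0.09 in batch 1 and 0.009 in batch 2. Irf9 differed by -0.13 in batch 1 and 0.06 in batch 2.

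The OAS family makes the messenger 2',5'-oligoadenylate that activates RNase L, and its 5 members had a median difference of -0.32, with 5 of 5 lower. Oas1a read 8.59, 8.07 and 8.47 log2 units on knockout arrays, against 8.75, 8.88 and 8.45 on control arrays. Here the genotypes overlapped, since control replicate 3 was below knockout replicates 1 and 3. Its difference was -0.32 ± 0.17 (SE, n = 3 and 3; limma, Benjamini-Hochberg adjusted p = 1.00), -0.23 within batch 1 and -0.18 within batch 2. Oasl2, an OAS-like protein, read 9.01, 7.83 and 8.79 on knockout arrays and 9.22, 9.17 and 8.64 on control arrays. Oasl1, described in mice as a repressor of Irf7 translation, read 8.54, 7.70 and 8.51 on knockout arrays and 8.63, 8.68 and 8.43 on control arrays. For both genes the low array was knockout replicate 2, and without it their differences were -0.11 and -0.05. Oas3 had the widest spread of the family, at 8.20, 6.73 and 7.67 on knockout arrays and 7.83, 7.66 and 7.38 on control arrays, and its difference was 0.45 within batch 1 and -0.17 within batch 2. Oas2 differed by -0.16, and its 3 values of batch 2 were identical.

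The IFIT genes, whose proteins bind foreign RNA and hold back its translation, were lower in 3 of 3, with a median of -0.19. Ifit1 read 6.69, 5.94 and 7.30 log2 units on knockout arrays and 7.08, 7.0001 and 7.17 on control arrays, a difference of -0.44 ± 0.32 (SE, n = 3 and 3), and -0.09 without knockout replicate 2. Its knockout arrays included the lowest and the highest of the 6 values. Ifit2 and Ifit3, its neighbours on chromosome 19, differed by -0.17 and -0.19, and by 0.07 and 0.01 without knockout replicate 2. Of the ISG15 system, Usp18, the protease that removes Isg15 from proteins and dampens receptor signalling, read 8.09, 7.15 and 8.49 on knockout arrays and 8.34, 8.61 and 8.11 on control arrays, a difference of -0.45 ± 0.33, and -0.07 without knockout replicate 2. Trim25, a ubiquitin ligase of the RNA sensor pathway, differed by -0.0021.

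The sensors and effectors of foreign nucleic acid were split, with 3 of 6 lower and a median of -0.04. Dhx58 (the helicase LGP2), Zbp1 (a sensor of Z-form nucleic acid) and Adar (an RNA editing enzyme) differed by -0.19, -0.15 and -0.08. Ifih1 (the RNA sensor MDA5), Eif2ak2 (the kinase PKR) and Samhd1 (a nucleotide hydrolase) differed by 0.01, 0.03 and 0.12. Ifih1 had the narrowest range over the 6 arrays of any member, 0.105 log2 units, with 3 identical values in batch 2. All these differences except those of Dhx58 and Zbp1 were smaller than their standard errors. Within batches 1 and 2, Dhx58 differed by -0.09 and -0.19, Zbp1 by -0.18 and 0.01, and Adar by 0.02 and 0. Of the 6 genes, 3 were lower in batch 1, and in batch 2, 1 was lower and 2 exactly equal.

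The antigen processing genes lie side by side on chromosome 17 and were lower in 3 of 3, with a median of -0.11. Psmb9, an inducible proteasome subunit, read 9.30, 9.30 and 9.30 log2 units on knockout arrays, against 9.56, 9.48 and 9.32 on control arrays. The genotypes did not overlap, but control replicate 3 lay just above the knockout arrays, and knockout replicates 2 and 3, both of batch 2, held the same value. Its difference was -0.15 ± 0.09 (SE, n = 3 and 3; limma, Benjamini-Hochberg adjusted p = 1.00), -0.22 within batch 1 and -0.02 within batch 2. Psmb8, a further inducible subunit, differed by -0.11 over all arrays, -0.37 within batch 1 and -0.09 within batch 2, and the peptide transporter gene Tap1 by -0.11. Of the interferon-induced GTPases, Mx1 differed by -0.14, Mx2 by -0.21 and Gbp3 by 0.27. Mx2 lay below the filter on dim probe sets and was not tested, and C57BL/6 mice are known to carry a disrupted Mx1. Gbp3, a guanylate-binding protein that acts on vacuoles holding microbes, read 8.24, 9.89 and 8.44 on knockout arrays and 8.65, 8.61 and 8.47 on control arrays. Knockout replicate 2 was far above the other 5 arrays. Without it the Gbp3 difference was -0.24, and all 3 measured GTPases were lower.

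Among the other antiviral genes, 8 of 10 were lower, with a median of -0.20. Xaf1, a pro-apoptotic partner of the XIAP inhibitor, read 7.19, 6.999 and 7.18 log2 units on knockout arrays, against 7.56, 7.46 and 7.18 on control arrays. Its difference was -0.28 ± 0.12 (SE, n = 3 and 3; limma, Benjamini-Hochberg adjusted p = 1.00), -0.32 within batch 1 and -0.09 within batch 2. Knockout replicate 3 and control replicate 3, both of batch 2, held the same value, and knockout replicate 1 lay just above it, so the genotypes overlapped. Bst2, or tetherin, which holds budding virus particles at the cell surface, read 9.23, 9.29 and 9.47 on knockout arrays and 9.71, 9.55 and 9.43 on control arrays. Only control replicate 3 lay within the knockout range, and the difference was -0.23 ± 0.11 (SE, n = 3 and 3; limma, Benjamini-Hochberg adjusted p = 1.00), -0.40 within batch 1 and -0.05 within batch 2. Rsad2, or viperin, whose product ddhCTP stops viral RNA synthesis, read 8.35, 6.95 and 9.13 on knockout arrays and 8.64, 8.69 and 8.82 on control arrays. Its knockout arrays held the lowest and the highest value of the 6, and its range of 2.17 log2 units was the widest of any member. The difference was -0.57 ± 0.50 over all arrays and 0.02 without knockout replicate 2. Cmpk2, the mitochondrial nucleotide kinase encoded beside Rsad2 on chromosome 12, read 6.84, 6.40 and 7.37 on knockout arrays and 7.31, 7.13 and 7.14 on control arrays, again with knockout replicate 2 lowest. Rtp4 differed by -0.23, Ifi35 by -0.16, Trim30a by -0.10, Parp9 by -0.03, Parp14 by 0.02 and the chemokine gene Cxcl10 by 0.13. The signs of Cxcl10 and Parp9 did not hold within batches. Cxcl10 differed by -0.06 in batch 1 and -0.007 in batch 2, and Parp9 by 0.01 and 0. Rsad2, Oasl2, Oasl1, Oas3, Usp18, Ifit1, Cmpk2 and Gbp3 are given in full because of their size or spread, and were chosen after their values were seen.

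**Figure D2:**
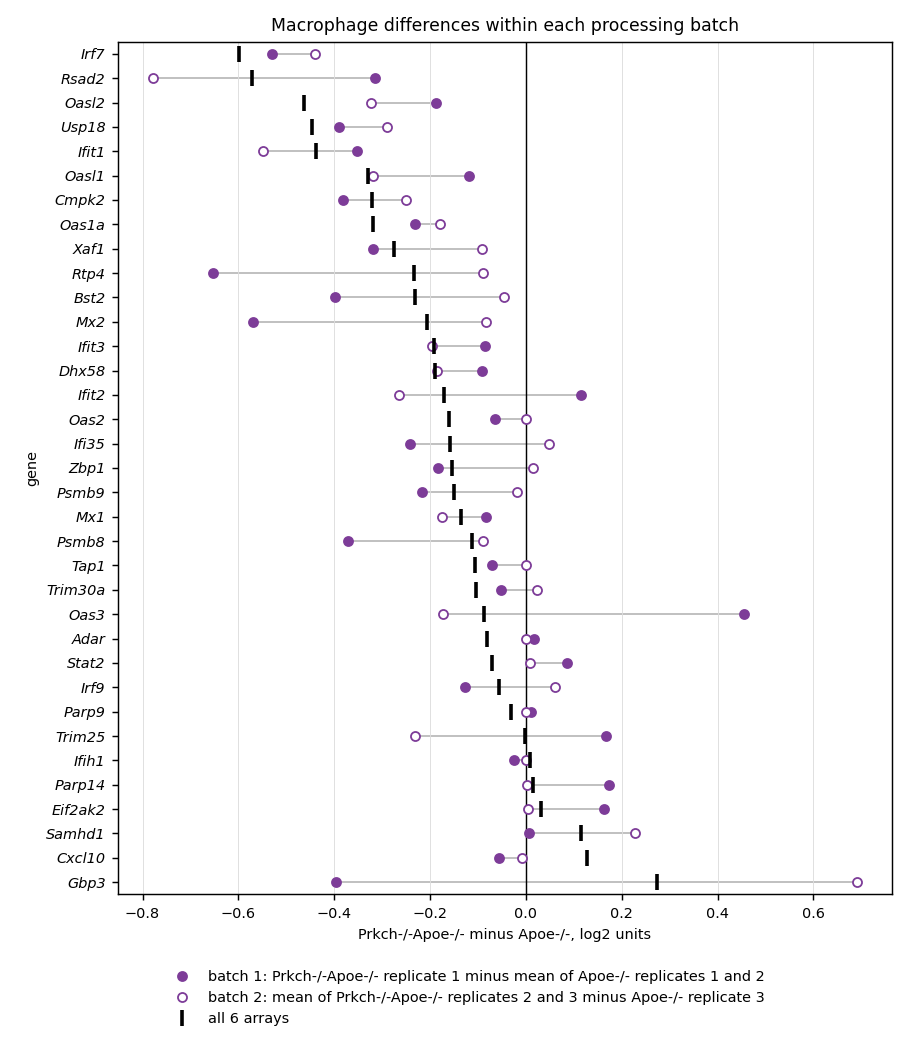
Knockout minus control difference of each member (rows, ordered by the difference over all arrays) in log2 units. Filled circles are batch 1, open circles batch 2 and black bars all 6 arrays. For 18 members both circles lie left of 0; the circles lie far apart for Gbp3 (-0.40 and 0.69) and Oas3 (0.45 and -0.17).

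The direction was also counted within each batch. Within batch 1, where 1 knockout array stood against 2 control arrays, 26 of 35 members were lower, with a median of -0.12. Within batch 2, where 2 knockout arrays stood against 1 control array, 21 were lower, 9 higher and 5 exactly equal, with a median of -0.08. The share of all probe sets that were lower is not given for either batch alone. Both batches gave a lower value for 18 members; over all probe sets tested this share was 14.8%. These counts are not alike, because 3 identical values in batch 2 leave no difference there: 14 of the 35 members had at least 2 identical values in batch 2 and 5 had 3, beside 65.5% and 40.2% of all probe sets. Among the 21 members with 3 distinct values in batch 2, 14 were lower in both batches, beside 24.8% of the 5659 such probe sets. With the batch as a block 27 members were lower, the median was -0.10, and limma with Benjamini-Hochberg adjustment called 0 members among 0 probe sets called in all (0%). At an unadjusted p under 0.05 the blocked limma fit picked 0 members and 1.48% of all probe sets. With that block 44% of all probe sets were lower in knockouts, compared with 63% without it over the probe sets past the filter.

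The 3 knockout macrophage arrays did not read alike. The members' median deviation from the control mean was -0.07, -0.22 and -0.07 log2 units on knockout replicates 1, 2 and 3, and 0.09, 0.03 and -0.11 on control replicates 1, 2 and 3. Knockout replicate 2 was below both other arrays of batch 2 for 21 members, a position it held for 25.6% of all probe sets tested. It was the lowest of all 6 arrays for 15 members, and for 21.3% of all probe sets. Ties hold these shares down too, and among probe sets with 3 distinct values in batch 2 it was below both other arrays for 18 of 21 members, beside 50.4% of all, and the lowest of the 6 arrays for 13 of 21, beside 43.3%. On this array the OAS genes had a median deviation of -0.88. Knockout replicate 3, set against control replicate 3 of the same age and batch, was higher for 22 members and lower for 5, with a median of 0.02. Knockout replicate 1 was below both control arrays of batch 1 for 18 members, against 30% of all probe sets. Without knockout replicate 2, 26 of 35 members were lower and the median was -0.05. No share over all probe sets is given for this leave-out or for knockout replicate 3 against control replicate 3.

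Markers of other cells also moved on these arrays. The 5 measured B cell markers summed to 662, 4042 and 811 linear units on knockout arrays and to 1542, 713 and 903 on control arrays, so the array with the lowest member median also had the highest B cell signal. Of 6 mesothelial markers, 5 were lower in knockouts, with sums of 493 to 778 on knockout arrays and 735 to 897 on control arrays. Of 7 markers of plasmacytoid dendritic cells, the main interferon alpha producers, 5 were lower, including Bst2 itself. Within batch 1, 6 of these markers were lower, and within batch 2, 1 was lower and 4 exactly equal. With the batch as a block the median difference of these markers was -0.016. Their sums were 2599 to 2784 on knockout arrays and 2612 to 3024 on control arrays, and Siglech, the defining marker, read 6.16 to 6.34 log2 units on knockout arrays and 6.16 to 6.44 on control arrays. None of these markers is at 0, because the deposited log2 values have no 0. The part of these cells in the member differences was not tested, and in such bulk samples fewer cells of a type and less RNA per cell cannot be told apart.

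Of the rest of the pathway, limma with Benjamini-Hochberg adjustment called 0 genes of any list in macrophages. Of 10 measured interferons and receptor chains, 7 were lower with a median of -0.04, and the receptor genes Ifnar1, Ifngr1 and Ifngr2 differed by 0.15, 0.15 and -0.19. Of 9 signalling genes, 5 were lower with a median of -0.0059, with Jak1 at 0.14, Jak2 at 0.21, Irf8 at -0.09 and Irf3 at -0.12. The Irf8 values of batch 2 were identical. Of 10 genes that sense infection upstream of interferon, 5 were lower with a median of 0.0024; the kinase gene Tbk1 differed by 0.10 and the adaptor gene Mavs by -0.11. Thus the medians of the interferon and receptor, signalling and sensing lists lay between -0.04 and 0.0024. With the batch as a block these medians were 0.012, 0.055 and 0.027, with 4 of 10, 3 of 9 and 3 of 10 genes lower. Within batch 2, 1 gene of the interferon and receptor list was lower and 6 were exactly equal. Single genes such as Jak2, at 0.21, and Ifngr2, at -0.19, differed by more. Of 36 further interferon-stimulated genes, 28 were lower with a median of -0.08, and 24 were lower with a median of -0.04 with the batch as a block. Within batch 1, 26 were lower with a median of -0.10, and within batch 2, 12 were lower and 8 exactly equal, with a median of 0. Of these genes, Ifi27l2a differed by -0.61, Ifi205 by -0.43, Lgals3bp by -0.28 and the exonuclease gene Isg20 by -0.19.

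In livers of re-fed males on high-fat diet the members had no common direction. Of 35 members, 17 were lower and 18 higher in knockout livers, with a median difference of 0.0029 log2 units. Over all probe sets with 1 symbol 54.7% were lower and the median was -0.016. Limma with Benjamini-Hochberg adjustment called 0 of the 34 members past the filter, beside 2 of 17382 probe sets (0.0115%). At an unadjusted p under 0.05, limma picked 0 members and 4.21% of all probe sets. Knockout and control livers did not overlap for 3 members lower in knockouts (Rsad2, Psmb8 and Bst2) and 2 higher (Parp14 and Parp9). Over all probe sets with 1 symbol the same pattern was seen in 16.8% lower and 12.7% higher.

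**Figure D3:**
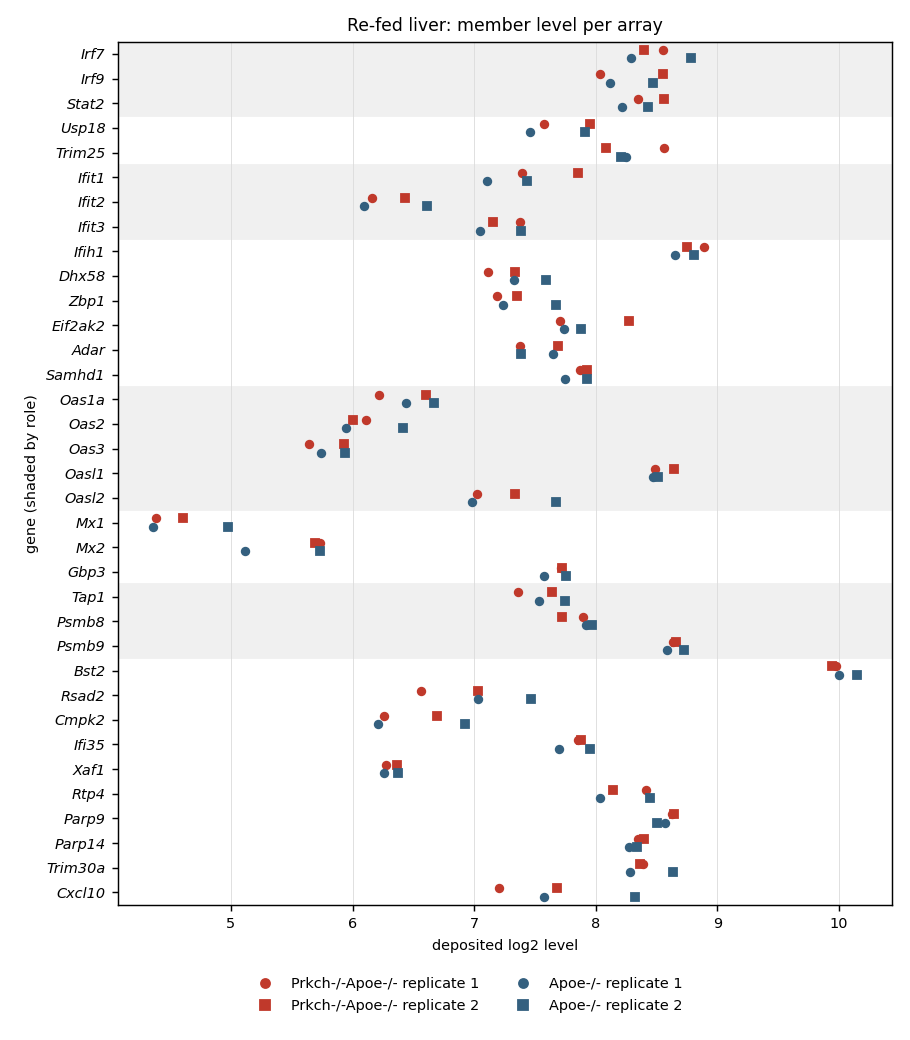
Deposited log2 level of each of the 35 measured members (rows, shaded by role) on each liver array. Red marks are knockout livers, blue marks control livers, and the shape gives the replicate. Control replicate 2 (blue squares) is the highest of the 4 arrays for 23 members and lies above control replicate 1 (blue circles) for 32.

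Rsad2 and Cxcl10 had the lowest differences of the liver members. Rsad2 read 6.56 and 7.03 log2 units in knockout livers, against 7.03 and 7.47 in control livers, a difference of -0.45 ± 0.20 (SE, n = 2 and 2; limma, Benjamini-Hochberg adjusted p = 1.00). Knockout replicate 2 and control replicate 1 were equal to 2 decimals, so the groups only just parted. The Rsad2 difference was -0.22 without knockout replicate 1 and -0.69 without knockout replicate 2. Cxcl10, a chemokine that draws activated T cells, read 7.20 and 7.68 in knockout livers and 7.57 and 8.32 in control livers, a difference of -0.50 ± 0.26 with overlapping groups. Leaving out control replicate 1 gave -0.88 and leaving out control replicate 2 gave -0.13. Ifit1 ran the other way, at 7.39 and 7.86 in knockout livers and 7.10 and 7.43 in control livers, a difference of 0.36 ± 0.19. Its lower knockout liver lay below its higher control liver, and the difference was 0.59 without knockout replicate 1 and 0.12 without knockout replicate 2. Dhx58 read 7.12 and 7.33 in knockout livers and 7.33 and 7.59 in control livers, a difference of -0.23 ± 0.15 with overlapping groups that ran from -0.36 to -0.10 over the arrays left out. Mx2 read 5.73 and 5.69 in knockout livers and 5.12 and 5.73 in control livers, a difference of 0.29 ± 0.20 that rests on control replicate 1, since without it the difference was -0.016.

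The other liver members without overlap differed by small amounts. Psmb8 read 7.89 and 7.72 log2 units in knockout livers and 7.92 and 7.97 in control livers, a difference of -0.14 ± 0.13 that ran from -0.22 to -0.05 over the arrays left out. Bst2 read 9.98 and 9.94 in knockout livers and 10.0004 and 10.15 in control livers, a difference of -0.11 ± 0.13 that ran from -0.18 to -0.04. The ADP-ribosyltransferase family genes Parp14 and Parp9, neighbours on chromosome 16, were higher in knockouts. Parp14 read 8.35 and 8.40 in knockout livers and 8.27 and 8.34 in control livers, and Parp9 read 8.63 and 8.64 in knockout livers and 8.57 and 8.50 in control livers. Their differences of 0.07 and 0.10 were smaller than their standard errors of 0.13. Irf7 read 8.56 and 8.39 in knockout livers, between the control values of 8.29 and 8.78.

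By role, the liver differences were lowest for antigen processing (3 of 3 lower, median -0.14) and the OAS family (4 of 5 lower, median -0.12). The IFIT genes had a median of 0.05, the ISG15 system 0.09 and the regulators 0.0029. The spread inside a genotype was wider than these medians. Control replicate 2 was the highest of the 4 livers for 23 of 35 members, against 21.9% of all probe sets tested, and it exceeded control replicate 1 for 32. The members' median deviation from the control mean was -0.07 and 0.05 log2 units in knockout replicates 1 and 2 and -0.13 and 0.13 in control replicates 1 and 2. Without control replicate 1, 26 members were lower and the median was -0.15; without control replicate 2, 8 were lower and the median was 0.12. No share over all probe sets is given for these leave-outs or for control replicate 2 against control replicate 1.

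Markers of macrophages read lower in knockout livers. All 5 macrophage markers were lower, 4 of them without overlap, with a median difference of -0.32 and sums of 2631 and 3168 linear units in knockout livers, against 3686 and 4991 in control livers. The mean differences of all 5 markers of Kupffer cells, the liver's resident macrophages, were below 0, but this rests on knockout replicate 2. Their median deviation from the control mean was 0.16 and -0.98 log2 units in knockout replicates 1 and 2 and -0.24 and 0.24 in control replicates 1 and 2, and only Cd5l had no overlap. Their sums were 4687 and 3198 in knockout livers and 4980 and 6340 in control livers. Control replicate 2, the highest liver for most members, also had the highest sum of both marker lists. The part of these cells in the member values was not tested. Of the rest of the pathway, the interferon and receptor list had 6 of 10 genes lower with a median of -0.04, the signalling list 7 of 9 with a median of -0.07, the sensing list 7 of 10 with a median of -0.11, and the further interferon-stimulated genes 23 of 36 with a median of -0.04. The receptor genes Il10rb and Ifngr2 each differed by -0.40 and the transcription factor gene Irf8, active in macrophages, by -0.42, whereas Ly6e and Ddx60, further interferon-stimulated genes, differed by 0.40 and 0.39. Limma with Benjamini-Hochberg adjustment called 0 genes of these lists.

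In the aorta most members read higher in the knockout pool, and 0 reached a 2-fold difference. With 1 pool per genotype these differences have no replicate check. They are on the scale of log2(signal + 16), which understates changes of dim genes. Of 54 member probe sets, 30 probe sets of 24 genes passed the filter, a signal of 32.6 on the brighter array. Of these 30, 26 were higher and 4 lower in the knockout pool, with a median difference of 0.26. Irf7 and Ifit2 reached the filter only in the knockout pool and so had to read higher there. With both pools at or above the filter, an alternative chosen after seeing the data, 24 of 28 were higher and 4 lower, with a median of 0.26. Over all 10375 probe sets past the filter, 50.2% were higher, the median difference was 0.0012, and 1.27% differed at least 2-fold. Without the filter 47 of the 54 member probe sets were higher, against 55.3% of all probe sets with 1 symbol. With both arrays scaled to the same median, 9 of the 30 probe sets past the filter were lower, and 26 stayed above the median of all probe sets, which was then -0.099.

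**Figure D4:**
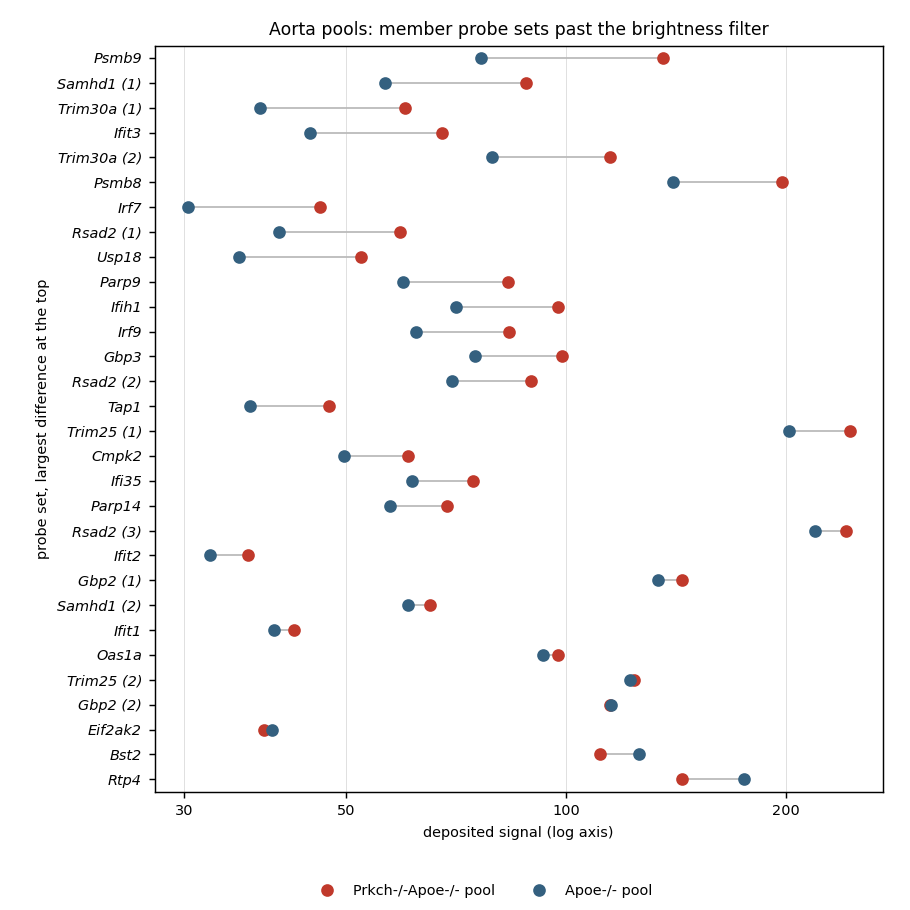
Deposited signal (log axis) of the 30 member probe sets past the filter in the knockout pool (red) and the control pool (blue), ordered by the difference; numbers in brackets tell apart probe sets of the same gene. Red lies right of blue for 26 probe sets and left of it for 4 (Rtp4, Bst2, Eif2ak2 and the dimmer Gbp2 probe set).

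Antigen processing genes were among the largest differences. Psmb9 had a signal of 136 in the knockout pool and 76.6 in the control pool, a log2 difference of 0.71. Psmb8 had 197 in the knockout pool and 140 in the control pool, a difference of 0.45, and Tap1 differed by 0.26 at its brightest probe set. The 3 neighbours on chromosome 17 were thus all higher in the knockout pool. Samhd1 had 88.1 in the knockout pool and 56.5 in the control pool at its brightest probe set, a difference of 0.52, but its other probe set past the filter differed by 0.08. Ifit3 had 67.6 in the knockout pool and 44.6 in the control pool, a difference of 0.46, while Ifit1 and Ifit2 differed by 0.07 and 0.12. Both probe sets of Trim30a, a ubiquitin ligase gene, were higher: one read 115 in the knockout pool and 79.1 in the control pool, and the other 60.2 in the knockout pool and 38.1 in the control pool. Irf7 had 46.0 in the knockout pool and 30.4, under the filter, in the control pool, a difference of 0.42. The ISGF3 subunit gene Irf9 differed by 0.34 and the Isg15 protease gene Usp18 by 0.40.

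A few members stood apart from this direction. Rtp4, a chaperone for receptors, had a signal of 144 in the knockout pool and 175 in the control pool, and Bst2 had 111 in the knockout pool and 126 in the control pool. Eif2ak2 differed by -0.03. Gbp2, which only the aorta array measured, had 144 in the knockout pool and 134 in the control pool at its brighter probe set, and 115 in each pool at the dimmer one. Oas1a, at 97.4 in the knockout pool and 93.1 in the control pool, was the only OAS gene past the filter. Rsad2 was higher at all 3 of its probe sets past the filter, by 0.13, 0.30 and 0.42.

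The 2 pools differed in their lymphocyte signal. All 5 measured B cell markers were higher, and their summed signal was 675 in the knockout pool and 96.5 in the control pool. Ms4a1 had 453 in the knockout pool and 49.9 in the control pool, and Pax5 was dim in both, at 3.33 in the knockout pool and 0.253 in the control pool. T and NK cell markers summed to 236 in the knockout pool and 108 in the control pool, with Cd3d at 87.5 in the knockout pool and 6.08 in the control pool. Macrophage markers summed to 3710 in the knockout pool and 3443 in the control pool, endothelial markers to 735 in the knockout pool and 842 in the control pool, and plasmacytoid dendritic cell markers to 1083 in the knockout pool and 1429 in the control pool. Most of the last gap came from Cox6a2, which striated muscle also expresses, at 492 in the knockout pool and 789 in the control pool, whereas Irf8 of the same list read 117 in the knockout pool and 71.3 in the control pool. The part of these cells in the member differences was not tested. Among genes past the filter, 7 of 8 signalling genes were higher with a median of 0.17, led by Irf8 at 0.61. The interferon and receptor list had 1 of 4 higher, and the sensing list 3 of 4, with Mavs at -0.38 and Tlr4 at 0.36. Of 22 further interferon-stimulated genes past the filter, 18 were higher with a median of 0.18, and only Epsti1, at 1.43, passed 2-fold.

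**Figure D5:**
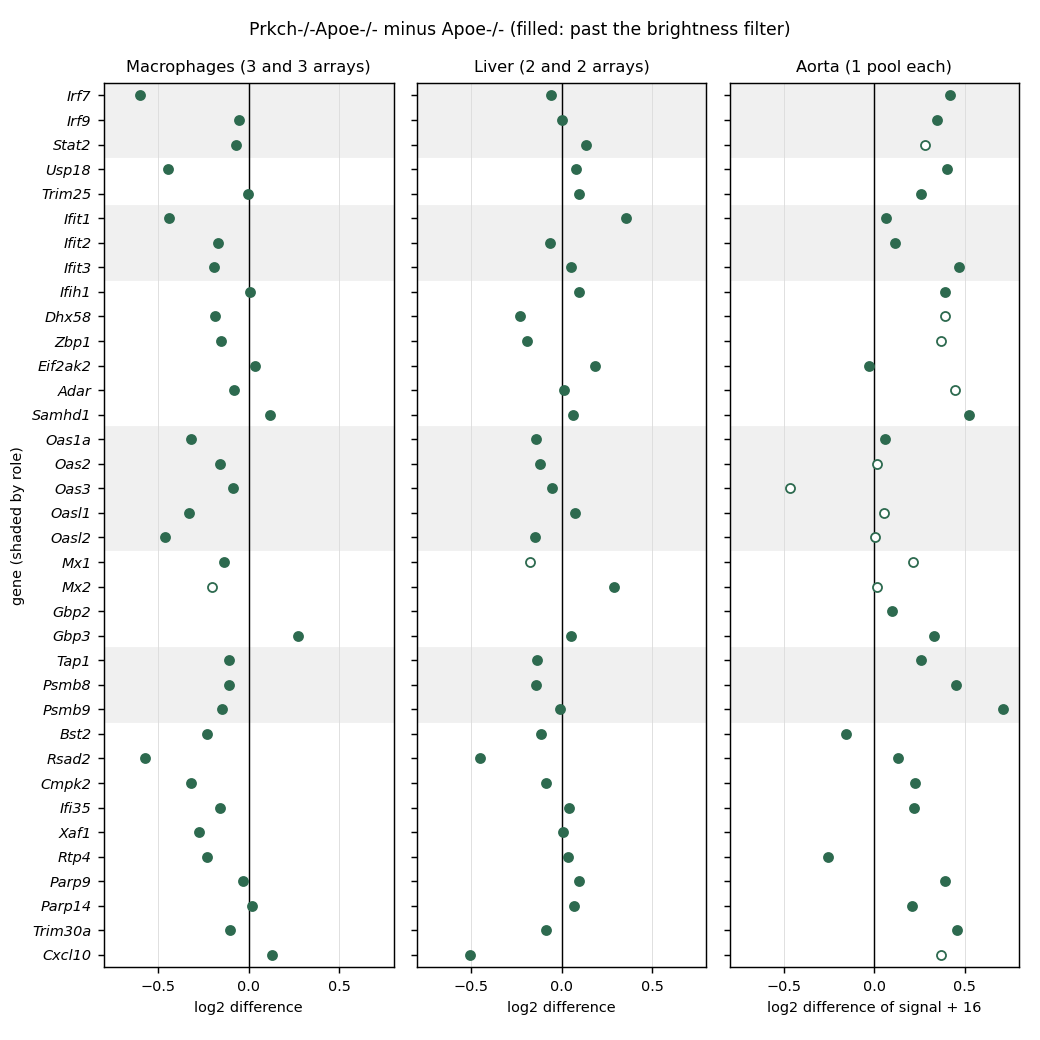
Knockout minus control difference of each measured member (rows, shaded by role) in macrophages, liver and aorta, in log2 units (for aorta log2 of signal + 16, brightest probe set per gene). Filled circles passed the filter on dim probe sets in that tissue. Irf7 lies at -0.60, -0.06 and 0.42, and Psmb9 at -0.15, -0.0068 and 0.71.

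Set side by side, the member differences had no common sign over the tissues, and no difference between macrophages and liver passed its test. In a limma fit over the 10 arrays, the macrophage difference minus the liver difference was called for 0 members and for 0 of 17853 probe sets (0%) after Benjamini-Hochberg adjustment. At an unadjusted p under 0.05, this limma fit picked 0 members, beside 2.08% of all probe sets. The smallest p among members belonged to Ifit1, whose macrophage difference of -0.44 and liver difference of 0.36 were -0.79 ± 0.45 apart (SE; limma, Benjamini-Hochberg adjusted p = 1.00). Irf7, at -0.60 in macrophages and -0.06 in liver, gave -0.54 ± 0.35, and Cxcl10, at 0.13 in macrophages and -0.50 in liver, gave 0.63 ± 0.41. The positive macrophage difference of Cxcl10 did not hold within batches, where it was -0.06 in batch 1 and -0.007 in batch 2. Rsad2, at -0.57 in macrophages and -0.45 in liver, gave -0.12 ± 0.68. In all, 16 members were lower in both macrophages and liver, while 29 of 35 were lower in macrophages and 17 of 35 in liver. The same count over all probe sets is not given, so the overlap says nothing about agreement between the tissues. Sex, diet, age and processing differed along with the tissue and cannot be told apart from it. Aorta was measured on another array and its difference from the other tissues was not tested.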

How the data were processed

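Gene expression was measured on 12 arrays. Per the submitters' processing notes, the authors used Affymetrix Expression Console; neither its version nor the algorithm is stated. Judged from their ranges, the deposited values of macrophages and liver are log2 probe set summaries, and the deposited aorta values are linear intensity; any normalization was the authors'. Names came from the platform annotation, and only probe sets with 1 symbol were used: 21789 of 35557 on the macrophage and liver array and 20393 of 22690 on the aorta array. Probe sets with a mean at or above the 30th percentile were tested within each tissue, knockout minus control, with limma 3.58.1 in R 4.3.3 (lmFit, eBayes, no covariate), at a Benjamini-Hochberg adjusted p under 0.05 over all tested. Standard errors are limma's moderated ones. Aorta differences used log2(signal + 16) where the brighter array reached the median signal. Summed marker levels add the antilog of log2 values, or the aorta signal. Processing batches were read from identical deposited values. The labels call the macrophage and liver arrays biological replicates, and p-values measure the spread between these few arrays, whose number limits the precision.

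Members without overlap between genotypes and the 5 with the smallest limma p were given in full, in aorta the 6 largest differences past the filter; other lists name up to 4 genes. The members, lists and rules were chosen with earlier results of these data known, so member counts are descriptions. Where the same share over all probe sets was counted, it is given beside them. Counts without that share cannot be told apart from the direction of all probe sets. The limma computation was tested on simulated arrays with large known differences and without batches or ties. That test checks the code and not its power in these data. Alternatives were the filter, normalization, batch and replicate blocks, a trended prior, probe set summaries, the pseudocount and leaving out each replicate.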

Additional observations from a re-analysis of the deposited data

How the results depend on the processing

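No setting run called a member. Over the alternatives, the smallest limma Benjamini-Hochberg adjusted p of a named member was 0.574 in macrophages, 0.395 in liver and 0.901 for macrophage minus liver. In macrophages 161 of 162 values of named members kept their direction, in liver 115 of 116, in aorta 35 of 35 and for macrophage minus liver 13 of 13. The exceptions were Rsad2 in macrophages, which ran from -1.06 to 0.023 over the arrays left out (0.023 without knockout replicate 2), and Mx2 in liver, which ran from -0.016 to 0.60 (-0.016 without control replicate 1). Leaving out each array, the macrophage median ran from -0.21 to -0.055 (without knockout replicate 2; 24 to 32 members lower), the members without overlap from 2 to 10 lower (10 without control replicate 3, 8 without knockout replicate 3; 1 with median centring) and from 0 to 1 higher. The liver median ran from -0.15 to 0.12 (8 to 26 lower), and the members without overlap from 3 to 23 lower (0 with quantile normalization) and from 2 to 22 higher (1 with median centring). A genotype with 1 array fewer parts from the other more easily, and in liver it is left with 1 array. The shares over all probe sets, lower or without overlap, are not given for these leave-outs. The larger non-overlap counts are therefore no result about the members. Quantile normalization and median centring each left 28 macrophage members lower, while the share over all probe sets became 52.8% and 51.3%. With both aorta arrays scaled to the same median, the median was 0.17 and 9 of 30 probe sets were lower, and without the filter 7 of 54 were lower. Samhd1 in aorta was 0.30 as the mean of its probe sets. Same-numbered macrophage arrays, alike in age, deviated together with r of 0.40, 0.03 and 0.50, and differently numbered ones with r from -0.46 to 0.20. Replicates 1 and 3 of both genotypes share a batch and replicates 2 do not, so pairing cannot be told apart from batch. With 2 livers per genotype r was 0.12 or -0.12 for every pair by arithmetic, which cannot decide on pairing. The main fits did not take the numbers as pairs. The replicate block called 0 members, with a smallest adjusted p of 0.947 in macrophages and 0.431 in liver (limma, Benjamini-Hochberg), and 16 probe sets in liver in place of 2, and it changed no call of a member. Array number, 3 and 2 per genotype, limits what could pass.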

Other observations

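The control arrays show how each member's level differed between elicited macrophages and re-fed high-fat livers of Apoe-/- mice. Between control macrophages and control livers, all probe sets with 1 symbol shifted by 0.78 log2 units in median, and relative to that shift 18 members were higher in macrophages and 17 lower. Samhd1, which depletes nucleotides in myeloid cells, averaged 11.51 log2 units in control macrophages and 7.84 in control livers, 2.89 above the shift. Trim25, Oas1a and Trim30a were 1.68, 1.36 and 1.26 above it. Ifit3 averaged 6.11 in control macrophages and 7.22 in control livers, -1.89 relative to the shift, and Cxcl10 and Bst2 stood at -1.54 and -1.29. Sex, diet, age and processing differ with the tissue here.

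Split by the promoter, 10 measured members with the response element core had a median macrophage difference of -0.15, with 8 lower, and 16 without it had -0.13, with 13 lower. In liver the medians were -0.07 with the core, 6 of 10 lower, and 0.0042 without it, 7 of 16 lower. These are descriptions of the listed windows, with no test.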
